A study of Mus musculus with 16 samples.

Results

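Type I interferon-stimulated effector genes encode the proteins with which a cell answers interferon alpha and beta: sensors of viral RNA, enzymes that cut, edit or trap it, membrane blockers, and the ISG15 modifier system. The members are 43 mouse genes picked by name for these roles and found by gene symbol in a table of read counts. They were chosen with earlier results of these data known. All 43 were among the 38720 entries of the table, and all 43 were among the 16842 genes that passed the filter on low counts. By role they divide into 4 RNA sensors, 12 RNA-binding and antiviral effectors, 7 GTPases and membrane effectors, 4 genes of the ISG15 system, 3 TRIM ubiquitin ligases, 4 genes of the PARP and DTX3L group and 9 other interferon-induced genes.

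Type I interferons bind a receptor made of IFNAR1 and IFNAR2, whose kinases JAK1 and TYK2 phosphorylate STAT proteins. These join IRF9 in a complex called ISGF3, which binds a short promoter motif, the interferon-stimulated response element, and turns on the effector genes. Several of the effectors, among them the RNA sensors, feed back into further interferon production. Stromal cells of most tissues, fat included, carry the receptor and keep a low level of these transcripts without infection.

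RNA was sequenced from adipose progenitors, the precursors of fat cells, of mice 4 weeks old. The 4 groups, with 4 libraries each, were knockout visceral (KO VAT), wild-type visceral (WT VAT), knockout subcutaneous (KO SAT) and wild-type subcutaneous (WT SAT). Knockout mice carried the Nr4a1tm1Jmi allele, whose label gives a B6;129S2 background although the strain field of every sample reads C57BL/6J. Nr4a1 encodes an orphan nuclear receptor of the immediate early response, and the labels describe no treatment. The knockout is germ-line, so it reached every cell of the mouse, and effects of Nr4a1 loss within the progenitors cannot be told apart from effects of its loss elsewhere or of flanking 129S2 sequence. The series calls the libraries of a group biological replicates but does not say that they are separate animals, so p-values measure the spread between these samples only.

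Library depth was 35761196 to 43984232 in KO VAT, 42383156 to 46293781 in WT VAT, 44181663 to 55551845 in KO SAT and 34655519 to 49437944 counts in WT SAT. Nr4a1 itself stood at 297 to 327 CPM (counts per 1000000 counts of the scaled library) in KO VAT, against 1432 to 1649 CPM in WT VAT, and at 195 to 209 CPM in KO SAT, against 997 to 1212 CPM in WT SAT, so it was lower in every KO library. All 7 progenitor markers (Pdgfra, Ly6a, Cd34, Dpp4, Pi16, Dcn and Itgb1) were detected, with a summed level of 10021 to 20627 CPM over all libraries. The lowest correlation of log2 CPM within WT SAT was 0.984, against at least 0.987 in the other groups. WT SAT replicate 3 stood apart in some genes. In that library the members Ifitm3 (724 CPM), Bst2 (152 CPM) and Ifi27l2a (512 CPM) were the highest of WT SAT. Slfn5 (124 CPM) was the lowest. The progenitor markers of that library summed to 20627 CPM, of which Dcn held 11963 CPM and Pi16 3422 CPM. The progenitor markers Pdgfra (595 CPM) and Itgb1 (601 CPM) were instead the lowest of WT SAT there. Results that rest on WT SAT replicate 3 are given with and without it.

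Some members carry the ISGF3 motif close to their start, which the following upstream stretches show for members named in the results. Promoter sequences from RefSeq (GRCm38.p6), running from 250 bases before the start to 50 bases after it, were at hand for 32 of the 43. The letters GAAANNGAAA, searched on both strands, occurred in 14 of these 32 members (43.8%), and in 1079 of 27025 genes with a promoter entry (3.99%). At least 2 matches occurred in 7 members (21.9%), against 0.266% of all genes. Isg15, which encodes the ubiquitin-like modifier, has 3 overlapping matches that begin 78, 72 and 66 bases before its start (promoter chr4:156200769-156201068, minus strand). Ifit1, whose product binds foreign 5' RNA ends, has 2, at 104 and 85 bases (chr19:34640639-34640938, plus strand), and its neighbour Ifit3 has 2, at 156 and 122 bases (chr19:34583279-34583578, plus strand). Bst2, which encodes tetherin, has 2 at 130 and 124 bases (chr8:71537423-71537722, minus strand). Capitals mark the matches, and the stretches run 5' to 3' on the strand of the gene:
Isg15: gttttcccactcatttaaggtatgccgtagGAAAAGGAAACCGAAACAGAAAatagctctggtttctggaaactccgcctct
Ifit1: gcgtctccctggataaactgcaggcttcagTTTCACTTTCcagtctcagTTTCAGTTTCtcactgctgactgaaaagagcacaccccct
Ifit3: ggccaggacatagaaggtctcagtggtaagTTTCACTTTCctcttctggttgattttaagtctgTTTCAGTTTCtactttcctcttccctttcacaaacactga
Bst2: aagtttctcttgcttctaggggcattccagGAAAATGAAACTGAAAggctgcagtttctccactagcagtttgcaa

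The related motif of STAT dimers, TTCNNNGAA, was in 7 of the 32 members (21.9%) and in 9.55% of all genes, and it overlapped a GAAANNGAAA match in Bst2 and Ifitm3. In KO against WT SAT, 4 of the 14 members with a match were called higher (median log2 fold change 0.61), as were 15 of the 18 without one (median 0.48). Of all tested genes, 3.46% were called higher in that comparison. None of the 7 with at least 2 matches (Isg15, Ifit1, Ifit3, Oas1a, Bst2, Ifitm3 and Trim21) was called there. These counts rest on WT SAT replicate 3. Without that library, 10 of the 14 members with a match and 15 of the 18 without one were called higher, as were 5 of the 7 with at least 2 matches (Isg15, Ifit1, Ifit3, Oas1a and Bst2). The share of all genes called in that fit was not counted. In KO VAT against KO SAT, all 14 members with a match were called lower (median -1.39), as were 15 of the 18 without one (median -0.89). There 20.0% of all tested genes were called lower.

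The first comparison set KO against WT in subcutaneous progenitors. Interferon effector genes were broadly higher in KO SAT. By edgeR's quasi-likelihood test with Benjamini-Hochberg adjustment over all tested genes, 26 of the 43 members were called higher (adjusted p under 0.05), where 3.46% of all tested genes were called higher. The members were chosen with earlier results of these data known, so this count is not independent of that choice. No member was called lower, where 2.43% of all genes were, and none was lower at an unadjusted p under 0.05 or called lower by DESeq2 or limma-voom. The log2 fold change was positive for 40 of 43, with a median of 0.53 and a range of -0.30 to 1.72, beside a median of -0.01 over all genes. In 28 members every KO SAT library was above every WT SAT library, which held for 7.95% of all tested genes. Summed over all members, KO SAT libraries held 3676 to 3951 CPM and WT SAT libraries 2662 to 3467 CPM, without overlap. RNA of bulk cells was measured, so more RNA per cell cannot be told apart from more cells that express a gene.

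**Figure D1:**
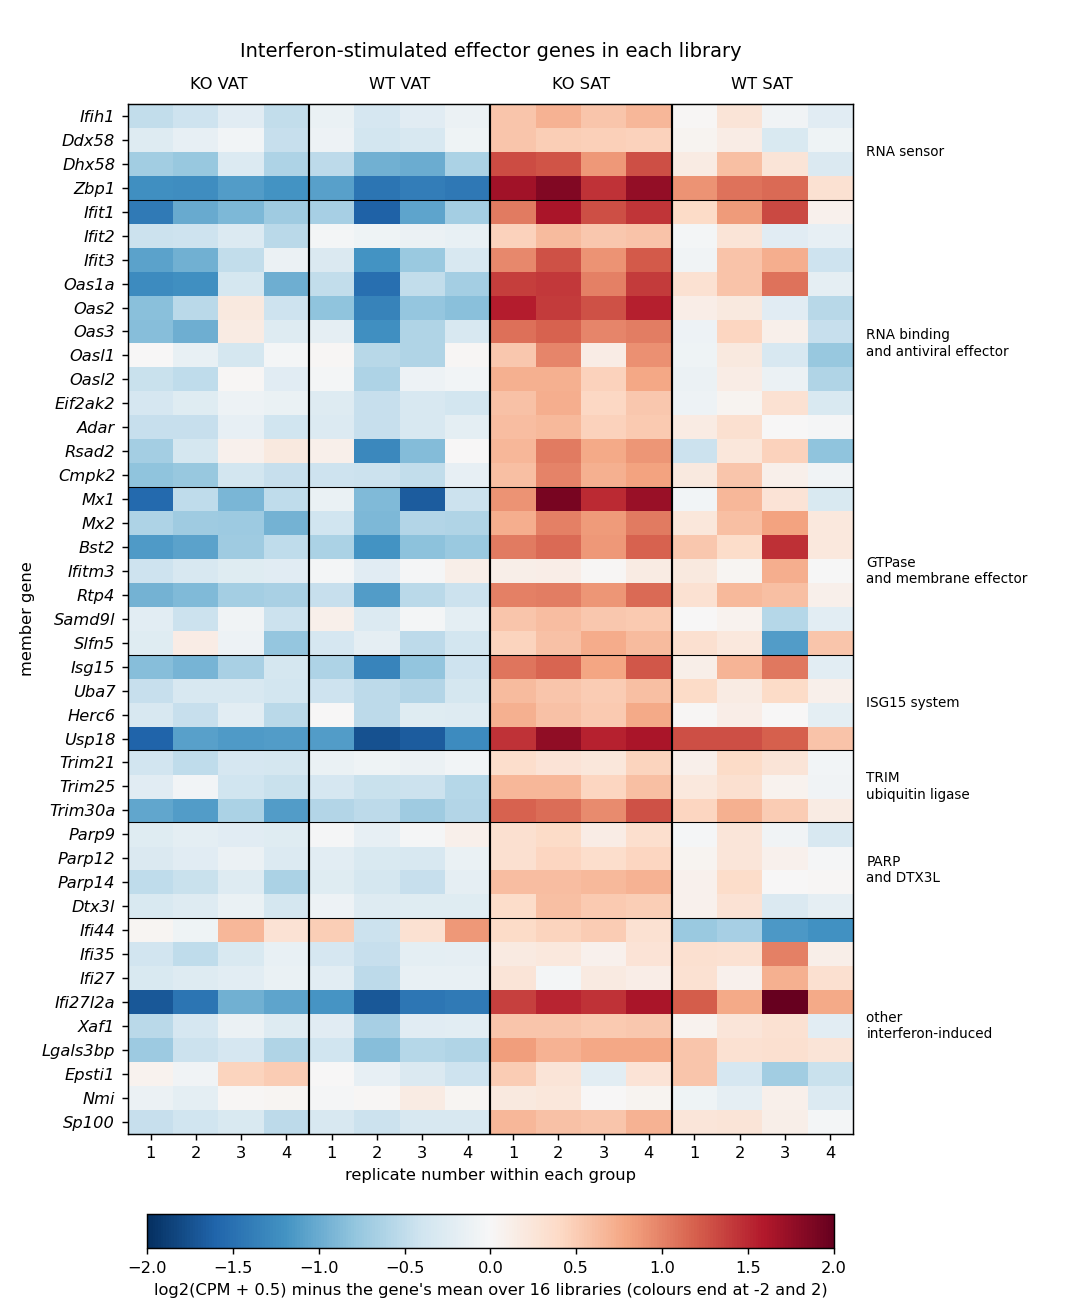
Heat map of the 43 members (down, grouped by role) in 16 libraries (across, replicates 1 to 4 of KO VAT, WT VAT, KO SAT and WT SAT). Colour gives log2(CPM + 0.5) minus the mean of that gene over all libraries. The 4 KO SAT columns are the reddest over most genes, WT SAT columns are paler, and the 8 VAT columns are mostly blue with little difference between KO and WT.

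All 4 RNA sensors rose in KO SAT. Ifih1 (chromosome 2, 62595798 to 62646255, build mm10) encodes MDA5, which recognises long double-stranded RNA. It stood at 60.7, 67.4, 61.1 and 65.9 CPM in KO SAT, against 42.1, 49.4, 39.1 and 35.1 CPM in WT SAT (log2 fold change 0.62 ± 0.09 SE, adjusted p = 0.000681). The groups did not overlap. Dhx58, which encodes LGP2, a helper of MDA5, had 20.7, 20.1, 15.2 and 20.6 CPM in KO SAT, against 9.14, 12.6, 9.88 and 6.60 CPM in WT SAT (1.004 ± 0.18, adjusted p = 0.00278). Its lowest KO library still lay above the highest WT library. Zbp1, a sensor of Z-form nucleic acid that can start necroptosis, had 46.9, 53.2, 40.0 and 49.5 CPM in KO SAT, against 27.3, 31.2, 31.9 and 17.8 CPM in WT SAT (0.81 ± 0.14, adjusted p = 0.00279). Ddx58, which encodes RIG-I, the sensor of RNA with a triphosphate end, rose by 0.53 ± 0.10 (adjusted p = 0.00472).

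Of the 12 RNA-binding and antiviral effectors, 7 rose and the other 5 had positive changes that were not called. Oas2 (chromosome 5, 120730333 to 120749853), an oligoadenylate synthetase that activates RNase L, had the smallest p of all members. Its KO SAT libraries held 38.7, 34.5, 31.5 and 38.3 CPM, against 14.1, 14.6, 10.8 and 8.56 CPM in WT SAT (1.57 ± 0.20, adjusted p = 0.000188). The highest WT library was far under the lowest KO library. Ifit2 (chromosome 19, 34550694 to 34576419), an RNA-binding inhibitor of translation, had 57.2, 64.5, 60.2 and 61.9 CPM in KO SAT, against 40.3, 49.3, 35.4 and 36.9 CPM in WT SAT (0.59 ± 0.09, adjusted p = 0.000712). These groups were also separate. Oasl1 (0.99 ± 0.25), Oasl2 (0.83 ± 0.16), the nucleotide kinase gene Cmpk2 (0.58 ± 0.13), Eif2ak2 (0.57 ± 0.11), which encodes the RNA-activated kinase PKR, and the RNA-editing gene Adar (0.45 ± 0.09) were called as well. Oas3 (1.29 ± 0.38, adjusted p = 0.0546), Rsad2 (0.92 ± 0.31, adjusted p = 0.0876), Ifit3 (0.84 ± 0.26, adjusted p = 0.0647), Oas1a (0.83 ± 0.28, adjusted p = 0.0906) and Ifit1 were not. Of the 75-base stretches of Ifit3, 41.1% also occur in other genes, most often Ifit3b. For Oas1a 47.6% do, most often in Oas1g. Reads of such stretches may have been split or lost. In 9 members (Dhx58, Oasl1, Eif2ak2, Adar, Slfn5, Usp18, Parp9, Dtx3l and Ifi35) exons overlap a gene on the opposite strand, and the library kit does not mark strand, so reads in the shared stretch cannot be told apart.

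The classical marker genes Isg15 and Ifit1 were not called. Isg15 had 44.2, 47.4, 36.4 and 50.01 CPM in KO SAT, against 22.6, 33.6, 43.6 and 17.8 CPM in WT SAT (0.60 ± 0.23, adjusted p = 0.141). Ifit1 had 62.8, 94.5, 74.9 and 82.3 CPM in KO SAT, against 39.5, 55.1, 76.6 and 32.0 CPM in WT SAT (0.63 ± 0.24, adjusted p = 0.138). In both genes WT SAT replicate 3 was the highest WT library and reached into the KO range. Without that library Isg15 (0.85, adjusted p = 0.0325) and Ifit1 (0.90, adjusted p = 0.0295) were called higher. Across members, 31 were then called higher: 8 joined (Isg15, Ifit1, Ifit3, Oas1a, Rsad2, Mx2, Bst2 and Nmi) and 3 dropped out (Mx1, Oasl1 and Parp9). Without WT SAT replicate 4 instead, the lowest of WT SAT in 34 of the 43 members, 19 were called higher. The count was 21 without WT SAT replicate 1 and 25 without WT SAT replicate 2. The share of all genes called was not counted in the fits with a library left out. The 17 members not called with all libraries had a median coefficient of variation of 9.25% in KO SAT and 36.0% in WT SAT. The 26 called ones had 6.96% in KO SAT and 16.0% in WT SAT, and their median log2 fold changes were not far apart, at 0.49 for those not called and 0.58 for those called.

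Among the 7 GTPases and membrane effectors, Mx1, Samd9l and Rtp4 rose. Samd9l (chromosome 6, 3372257 to 3399572), which encodes a restriction factor of poxviruses, had 63.7, 66.7, 62.8 and 62.2 CPM in KO SAT, against 43.3, 45.2, 28.9 and 37.4 CPM in WT SAT (0.72 ± 0.12, adjusted p = 0.00196). Mx1, a gene of the dynamin-like GTPases, was low throughout, with 4.23, 8.94, 6.60 and 7.88 CPM in KO SAT, against 1.94, 3.497, 2.57 and 1.56 CPM in WT SAT (1.53 ± 0.41, adjusted p = 0.0366). Every KO library exceeded every WT library of both genes, yet the Mx1 call was lost without any 1 of KO SAT replicates 2, 3 and 4 or WT SAT replicates 1, 3 and 4 (adjusted p up to 0.113). Rtp4, a transmembrane inhibitor of flavivirus replication, rose by 0.60 ± 0.14 (adjusted p = 0.0221). Mx2 (0.45 ± 0.14), Bst2 (0.34 ± 0.22), the schlafen gene Slfn5 (0.49 ± 0.25) and Ifitm3 (-0.16 ± 0.13), which blocks viral fusion, were not called. Mx2 is annotated as a polymorphic pseudogene.

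In the ISG15 system, the conjugating enzymes rose while the modifier did not pass the test. Herc6 (chromosome 6, 57581000 to 57664632), the mouse ligase that attaches ISG15 to proteins, had 28.3, 25.7, 24.8 and 29.3 CPM in KO SAT, against 17.3, 18.8, 17.1 and 14.8 CPM in WT SAT (0.67 ± 0.11, adjusted p = 0.00161). Uba7, the activating enzyme, had 74.9, 71.1, 68.6 and 73.5 CPM in KO SAT, against 63.2, 54.2, 62.6 and 51.4 CPM in WT SAT (0.32 ± 0.08, adjusted p = 0.0199). Neither gene overlapped between the groups. Usp18, which removes ISG15 and also restrains the receptor, had 47.2, 59.1, 50.5 and 53.5 CPM in KO SAT, against 42.3, 42.1, 39.8 and 25.5 CPM in WT SAT, and was not called (0.49 ± 0.17, adjusted p = 0.092). Among the TRIM ligases, Trim25, which aids RIG-I, rose by 0.46 ± 0.10 (adjusted p = 0.0101). Trim30a (chromosome 7, 104409025 to 104465193) had 78.8, 75.3, 67.0 and 84.7 CPM in KO SAT, against 46.6, 57.2, 49.3 and 38.8 CPM in WT SAT (0.67 ± 0.12, adjusted p = 0.00278). Trim21, a cytosolic antibody receptor, stood at 0.16 ± 0.09 and was not called.

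All 4 genes of the PARP and DTX3L group rose in KO SAT, with a median of 0.42, beside 0.72 for the sensors. Parp14 (chromosome 16, 35832874 to 35871544), an ADP-ribosyltransferase, had 82.0, 81.6, 83.6 and 86.2 CPM in KO SAT, against 56.4, 68.2, 53.1 and 53.8 CPM in WT SAT (0.53 ± 0.09, adjusted p = 0.0022). The KO libraries lay close together and apart from WT. Dtx3l (0.51 ± 0.11), Parp9 (0.33 ± 0.09) and Parp12 (0.29 ± 0.07) completed the group. Parp9 and Dtx3l share a bidirectional locus with 458 bases of exon on opposite strands.

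Of the 9 other interferon-induced genes, 4 rose. Ifi44 (chromosome 3, 151730922 to 151749960) had the largest change of all members, at a low level: 3.07, 3.21, 3.40 and 2.88 CPM in KO SAT, against 1.14, 1.23, 0.734 and 0.684 CPM in WT SAT (1.72 ± 0.29, adjusted p = 0.00201). Sp100 (chromosome 1, 85649988 to 85709998), a component of PML nuclear bodies, had 140.4, 132, 131 and 143 CPM in KO SAT, against 105, 105, 95.5 and 85.7 CPM in WT SAT (0.48 ± 0.07, adjusted p = 0.000607). Lgals3bp, a secreted galectin-binding glycoprotein, had 584, 528, 555 and 560.1 CPM in KO SAT, against 481, 402, 407 and 388 CPM in WT SAT (0.41 ± 0.10, adjusted p = 0.025). No KO library of these genes fell within the WT range. Xaf1, a pro-apoptotic gene, rose by 0.44 ± 0.12 (adjusted p = 0.0408). Ifi35 (-0.30 ± 0.15) and Ifi27 (-0.24 ± 0.11) had negative changes, and with Ifi27l2a (0.13 ± 0.25), Nmi (0.23 ± 0.09) and Epsti1 (0.49 ± 0.31) were not called. Of the 26 calls in SAT, 16 were made under every alternative analysis. The 10 lost under at least 1 of them were Cmpk2, Dtx3l, Lgals3bp, Mx1, Oasl1, Parp9, Parp12, Rtp4, Uba7 and Xaf1, with adjusted p up to 0.151 for Parp9.

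Markers of other cell types were read beside these changes. None of 11 tested macrophage and myeloid markers was called, and their summed level was 30.1 to 38.5 CPM in KO SAT, against 24.8 to 38.4 CPM in WT SAT. For plasmacytoid dendritic cells, the main interferon source in blood, 6 markers were listed. Of these, 3 passed the filter (Tcf4, Irf8 and Ccr9), and none was called in SAT. Siglech was at or near 0, with at most 12 counts in any library. Tcf4 averaged 284 CPM in KO SAT and 326 CPM in WT SAT, and Irf8 4.81 CPM in KO SAT and 4.29 CPM in WT SAT. Among 9 tested lymphocyte markers only the immunoglobulin joining chain gene Igj was called (3.98, adjusted p = 0.029), and among 5 endothelial markers only Kdr (0.95, adjusted p = 0.0248). The lymphocyte markers summed to 6.62 to 9.51 CPM in KO SAT, against 4.81 to 9.04 CPM in WT SAT, and the endothelial ones to 15.4 to 30.8 CPM, against 11.7 to 15.6 CPM. Their part in the member changes was not tested.

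The second comparison set KO against WT in visceral progenitors. No member was called in either direction by edgeR, where 2.84% of all tested genes were called higher and 1.26% lower. At an unadjusted p under 0.05, 1 member was higher (Oas2, 0.61 ± 0.21, edgeR adjusted p = 0.122) and 5 were lower. DESeq2 called 2 members lower (Ifit2 and Trim21), where it called 2.62% of the genes it tested lower. With limma-voom 1 was called lower (Ifit2), where 1.44% of all tested genes were. The median log2 fold change was -0.03, with 18 of 43 positive, beside a median of 0.00 over all genes. The members summed to 1695 to 1996 CPM in KO VAT and 1704 to 2006 CPM in WT VAT, ranges that almost coincide. Progenitor markers summed to 10021 to 11235 CPM in KO VAT, against 12848 to 13488 CPM in WT VAT. Dcn alone averaged 7807 CPM in KO VAT, against 9788 CPM in WT VAT. None of the 7 progenitor markers was called, though all had negative changes (median -0.25). Lymphocyte markers summed to 12.6 to 31.2 CPM, against 7.45 to 11.3 CPM, of which Igj held 5.82 to 25.0 CPM, against 0.789 to 7.24 CPM. The mesothelial, macrophage and endothelial sums overlapped between KO VAT and WT VAT. The part of these markers in the VAT comparison was not tested.

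Single members in VAT had the following levels. Ifih1 had 29.3, 31.0, 35.1 and 29.1 CPM in KO VAT, against 37.6, 32.5, 35.0 and 37.9 CPM in WT VAT (-0.20 ± 0.09, adjusted p = 0.286). Isg15 had 11.4, 10.6, 13.2 and 16.2 CPM in KO VAT, against 13.4, 8.05, 11.8 and 15.5 CPM in WT VAT (0.07 ± 0.24, adjusted p = 0.928). Ifit1 had 11.1, 14.8, 16.0 and 18.2 CPM in KO VAT, against 18.8, 9.53, 14.3 and 18.8 CPM in WT VAT (-0.03 ± 0.25, adjusted p = 0.97). In these 3 genes the groups overlapped. Ifit2 came nearest to a call, with 30.6, 30.8, 34.2 and 28.2 CPM in KO VAT, against 40.2, 38.9, 38.1 and 37.4 CPM in WT VAT (-0.32 ± 0.09, adjusted p = 0.0559). Every KO VAT library of Ifit2 was below every WT VAT library, the opposite order to that in SAT. Trim30a had 16.5, 15.7, 22.1 and 15.6 CPM in KO VAT, against 22.8, 23.9, 21.0 and 22.8 CPM in WT VAT (-0.37 ± 0.12, adjusted p = 0.109). Without KO VAT replicate 3, the highest of its group, Trim30a (-0.50, adjusted p = 0.0185) and Ifit2 (-0.37, adjusted p = 0.0434) were called lower.

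**Figure D2:**
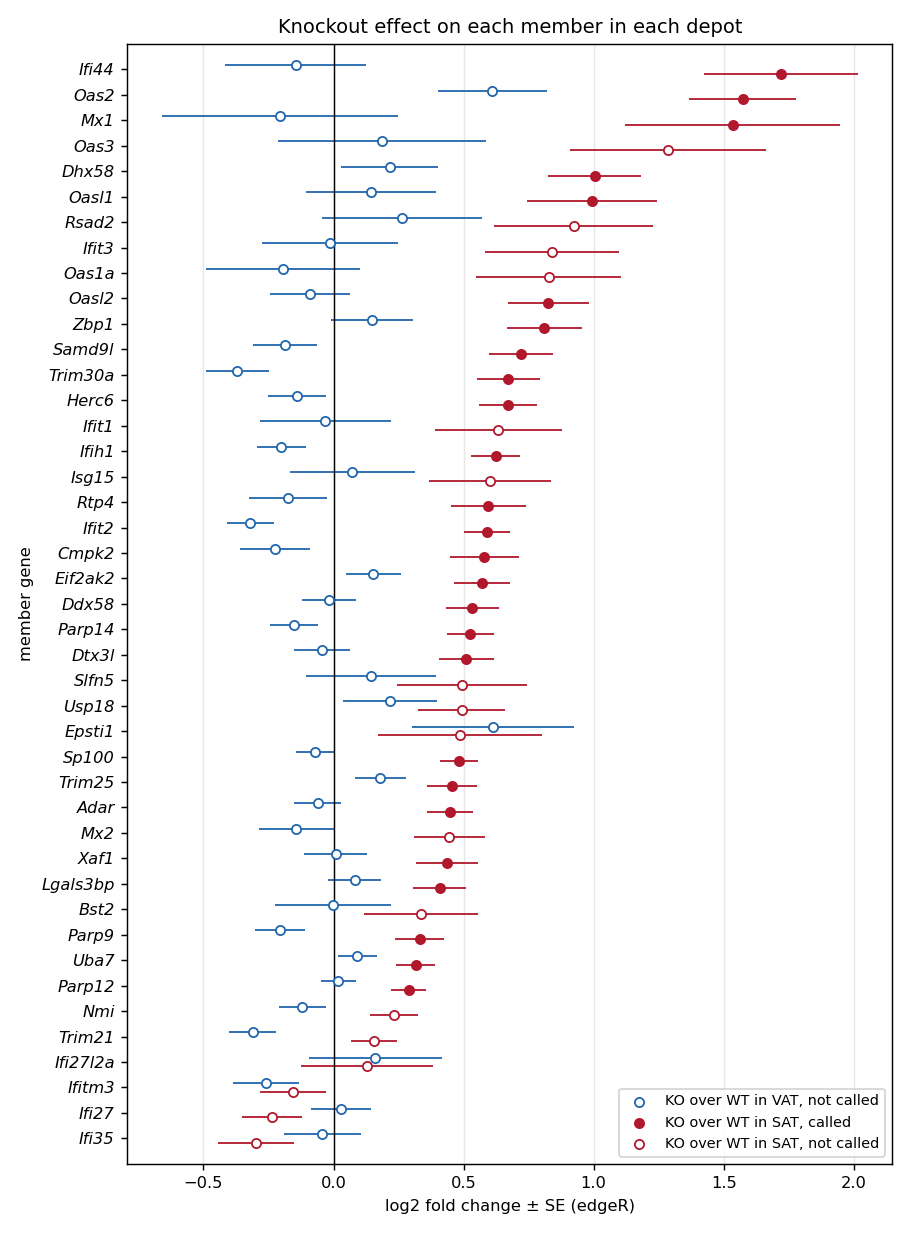
Log2 fold change of KO over WT (horizontal axis, points, with bars of 1 SE) for each member (down, ordered by the change in SAT), in VAT (blue) and SAT (red), and filled where called. Of the 43 members, 26 are filled in SAT, all to the right of 0, and none in VAT, where the points scatter around 0.

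Whether the KO effect differed between depots was tested as an interaction, the KO effect in VAT minus that in SAT. It was negative for 39 of 43 members, with a median of -0.56, beside 0.03 over all genes. The test called 7 members lower, where 0.137% of all tested genes were called lower. It called none higher, where 0.131% of all genes were. At an unadjusted p under 0.05, 29 members were lower and none was higher, and DESeq2 called 17 lower and none higher, where it called 1.86% of the genes it tested lower and 1.6% higher. The 7 genes were 1 each of the sensors, RNA-binding effectors, membrane effectors, ISG15 system, TRIM ligases, PARP group and other genes.

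Ifit2 had the smallest p, with KO effects of -0.32 in VAT and 0.59 in SAT (difference -0.91 ± 0.13, adjusted p = 0.0135). Ifih1 stood at -0.20 in VAT and 0.62 in SAT (-0.82 ± 0.13, adjusted p = 0.0202), and Trim30a at -0.37 in VAT and 0.67 in SAT (-1.04 ± 0.17, adjusted p = 0.0202). Sp100 had 64.3, 66.5, 71.8 and 61.3 CPM in KO VAT, against 70.8, 65.3, 71.0 and 70.3 CPM in WT VAT (interaction -0.55 ± 0.10, adjusted p = 0.0345). These VAT groups overlapped, while those of SAT were separate. Parp14 had 37.2, 38.8, 44.4 and 34.1 CPM in KO VAT, against 45.0, 41.7, 38.5 and 46.6 CPM in WT VAT (-0.68 ± 0.13, adjusted p = 0.038). Samd9l had 37.3, 31.8, 41.2 and 31.9 CPM in KO VAT, against 46.5, 35.8, 41.8 and 37.7 CPM in WT VAT (-0.91 ± 0.17, adjusted p = 0.0395). Herc6 had 13.6, 12.2, 14.6 and 11.6 CPM in KO VAT, against 17.2, 11.6, 14.4 and 14.1 CPM in WT VAT (-0.81 ± 0.16, adjusted p = 0.041). Each of the 7 genes was thus higher in KO SAT than in WT SAT and had a small negative change in VAT that was not called.

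**Figure D3:**
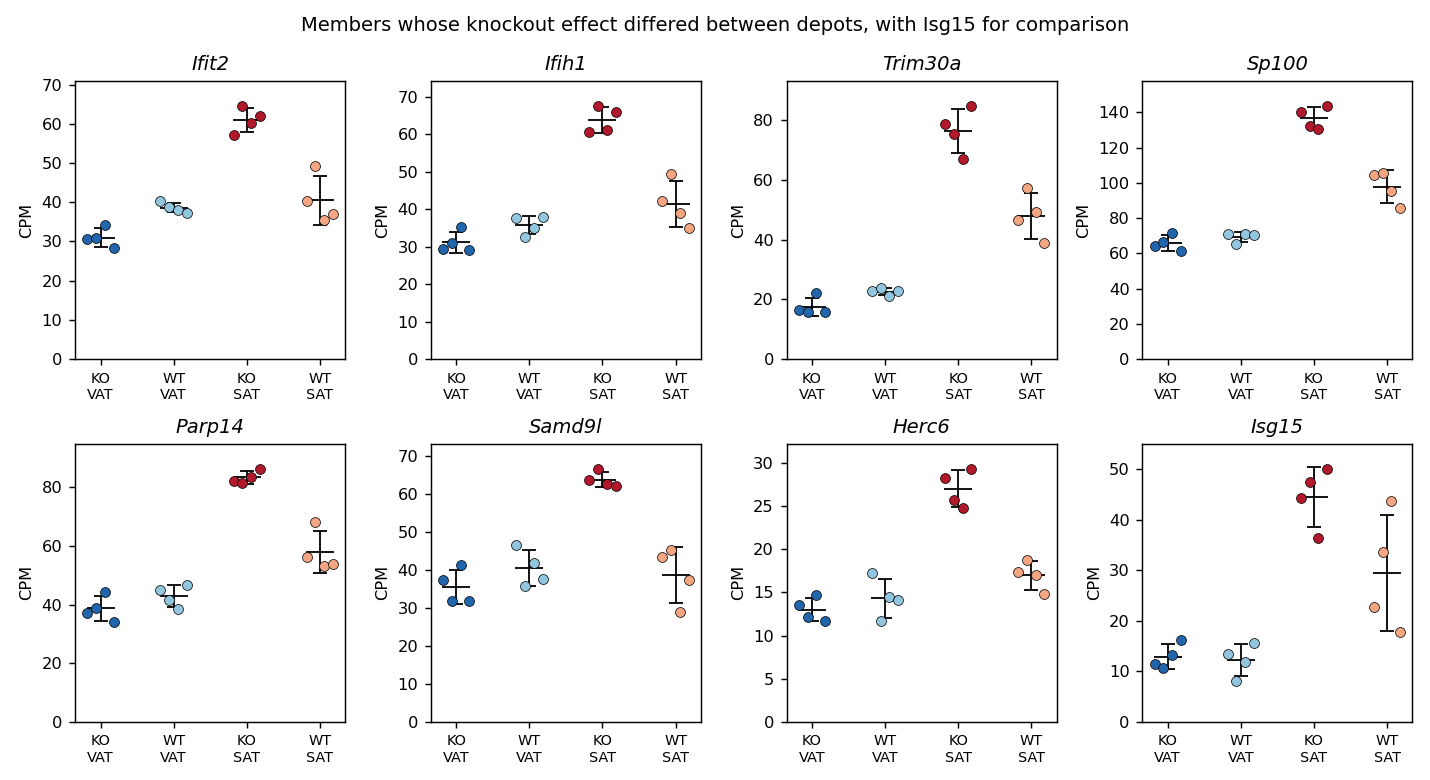
CPM in each library (points; black bar and whiskers give the mean and SD, n = 4) of the 7 members called in the interaction, and of Isg15, for KO VAT, WT VAT, KO SAT and WT SAT. In the 7 called genes KO SAT points sit above all WT SAT points, while in Isg15 a WT SAT library reaches 43.6 CPM, within the KO SAT range of 36.4 to 50.01 CPM.

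The number of interaction calls depended on single libraries. It was 12 without KO VAT replicate 3 and 10 without WT SAT replicate 2. It was 9 without WT VAT replicate 2 and 7 without WT SAT replicate 3. It was 2 without KO VAT replicate 2, and 1 without KO SAT replicate 4 or WT SAT replicate 1. It was 3 without any 1 of KO SAT replicates 1, 2 and 3, WT SAT replicate 4, KO VAT replicates 1 and 4, and WT VAT replicates 1, 3 and 4. Ifit2 alone was called in each of these fits, for which the share of all genes called was not counted. The highest adjusted p over the alternatives was 0.0561 for Ifih1, 0.0614 for Trim30a, 0.0847 for Sp100, 0.0993 for Parp14 and for Samd9l, and 0.104 for Herc6, and each kept its negative sign.

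The third question was how depot bears on the same genes. Interferon effector genes were lower in visceral than in subcutaneous progenitors of both genotypes, and in more members among KO libraries. In KO, 40 of 43 members were called lower in VAT, where 20.0% of all tested genes were called lower, and none was called higher, where 23.3% of all genes were (none also at an unadjusted p under 0.05 and with DESeq2 and limma-voom). The median log2 fold change was -1.01, beside 0.02 over all genes. In WT, 26 were called lower (17.6% of all genes) and 1 higher (19.1% of all genes), with a median of -0.50, beside 0.00 over all genes. The comparisons of depot and of genotype share libraries, so they are not independent of each other. Of the 43 members, 26 were called lower in both genotypes, 14 in KO only as called, Ifi44 was called higher in WT, and Epsti1 and Nmi were called in neither.

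**Figure D4:**
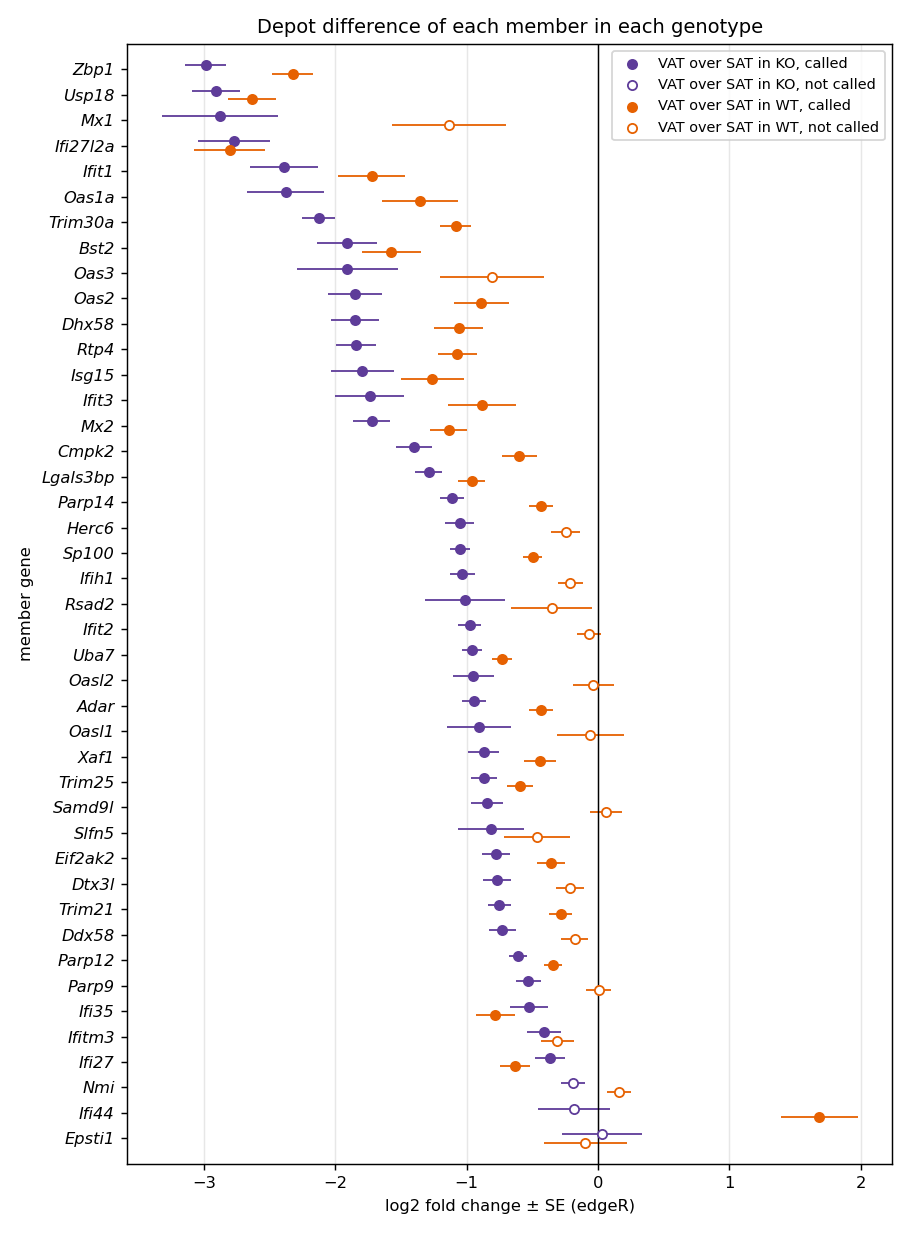
Log2 fold change of VAT over SAT (horizontal axis, points, with bars of 1 SE) for each member (down, ordered by the change in KO), in KO (purple) and WT (orange), and filled where called. Of the 43 members, 40 are filled left of 0 in KO and 26 in WT, and Ifi44 is the filled point at 1.68 in WT.

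Zbp1, Usp18 and Ifi27l2a had some of the widest depot differences in both genotypes. Zbp1 had 5.82, 5.81, 6.32 and 5.96 CPM in KO VAT and 6.48, 4.90, 5.21 and 4.998 CPM in WT VAT, far under its SAT levels (-2.99 ± 0.16 in KO, adjusted p = 2.22e-10, and -2.32 ± 0.16 in WT, adjusted p = 3.76e-09). Usp18 had 5.28, 7.72, 7.45 and 7.55 CPM in KO VAT and 7.57, 4.71, 4.99 and 6.81 CPM in WT VAT (-2.91 ± 0.18 in KO, adjusted p = 1.46e-09, and -2.63 ± 0.18 in WT, adjusted p = 5.12e-09). Ifi27l2a, an interferon-inducible gene related to Ifi27, had 33.7, 39.8, 56.3 and 52.9 CPM in KO VAT, against 286, 317, 301 and 344 CPM in KO SAT (-2.77 ± 0.27, adjusted p = 2.97e-07). In WT it had 48.5, 33.7, 40.1 and 41.2 CPM in VAT, against 256, 186, 512 and 187 CPM in SAT (-2.80 ± 0.27, adjusted p = 3.34e-07). No VAT library of these 3 genes reached the lowest SAT library.

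Trim30a, Sp100, Uba7 and Lgals3bp followed the same order with smaller steps. Uba7 had 34.8, 38.2, 38.3 and 37.1 CPM in KO VAT and 36.0, 33.5, 32.0 and 37.8 CPM in WT VAT (-0.96 ± 0.08 in KO, adjusted p = 2.37e-08, and -0.73 ± 0.08 in WT, adjusted p = 7.15e-07). Lgals3bp had 198, 241, 257 and 215 CPM in KO VAT and 248, 179.6, 219 and 214 CPM in WT VAT (-1.29 ± 0.10 in KO, adjusted p = 2.73e-08, and -0.96 ± 0.10 in WT, adjusted p = 1.05e-06). In KO VAT against KO SAT, the log2 fold change was -2.13 ± 0.13 for Trim30a (adjusted p = 7.45e-10) and -1.05 ± 0.07 for Sp100 (adjusted p = 4.83e-09). In none of the 4 genes did a KO VAT library reach a KO SAT library. Ifi44 ran the other way in WT, with 3.36, 1.54, 2.87 and 4.47 CPM in WT VAT, above all WT SAT libraries (1.68 ± 0.29, adjusted p = 0.00021). In KO it had 2.31, 2.07, 3.86 and 2.84 CPM in VAT, which overlaps KO SAT (-0.18 ± 0.27, adjusted p = 0.622).

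Dhx58, Oas2 and Mx1, which had the largest called genotype changes in SAT after Ifi44, were low in VAT of both genotypes. Dhx58 had 4.83, 4.62, 6.67 and 5.16 CPM in KO VAT and 5.51, 3.94, 3.82 and 5.06 CPM in WT VAT. Oas2 had 6.94, 8.64, 14.7 and 9.40 CPM in KO VAT and 7.05, 4.77, 7.23 and 6.94 CPM in WT VAT. Mx1 had 0.365, 1.28, 0.850 and 1.29 CPM in KO VAT and 1.80, 0.872, 0.297 and 1.38 CPM in WT VAT. All 3 lay below their KO SAT libraries and were called lower in KO VAT, at -1.85 ± 0.18 for Dhx58, -1.85 ± 0.21 for Oas2 and -2.87 ± 0.44 for Mx1.

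Markers of other cells differed between the depots. The 4 mesothelial markers (Msln, Upk3b, Krt19 and Lrrn4) summed to 588 to 1229 CPM in KO VAT, against 6.58 to 9.47 CPM in KO SAT, and to 603 to 1229 CPM in WT VAT, against 7.35 to 10.1 CPM in WT SAT. Progenitor markers summed to 10021 to 11235 CPM in KO VAT, against 14704 to 16432 CPM in KO SAT, and to 12848 to 13488 CPM in WT VAT, against 14906 to 20627 CPM in WT SAT. The macrophage sum was 36.5 to 65.6 CPM in KO VAT, against 30.1 to 38.5 CPM in KO SAT, and 42.7 to 68.2 CPM in WT VAT, against 24.8 to 38.4 CPM in WT SAT. The endothelial sum was 29.2 to 45.0 CPM in KO VAT, against 15.4 to 30.8 CPM in KO SAT, and 41.4 to 56.5 CPM in WT VAT, against 11.7 to 15.6 CPM in WT SAT. Of 5 endothelial markers, 4 were called higher in VAT in KO (23.3% of all genes were) and 3 in WT (19.1% of all genes were). The lymphocyte sum was 12.6 to 31.2 CPM in KO VAT, against 6.62 to 9.51 CPM in KO SAT, and 7.45 to 11.3 CPM in WT VAT, against 4.81 to 9.04 CPM in WT SAT. Of this sum, Igj alone held 5.82 to 25.0 CPM in KO VAT, against 0.528 to 2.38 CPM in KO SAT. In WT it held 0.789 to 7.24 CPM in VAT, against at most 0.114 CPM in SAT. Of 9 tested lymphocyte markers, 1 was called higher and 1 lower in VAT in KO (23.3% and 20.0% of all genes were). In WT, 1 was called higher and 2 lower (19.1% and 17.6% of all genes were). The median log2 fold change of the 9 was -0.13 in KO and -0.27 in WT. The part of these markers in the depot differences was not tested.

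Per kilobase (kb) of exon, the highest and lowest members differed 4009-fold in KO VAT, 5470-fold in WT VAT, 1420-fold in KO SAT and 5038-fold in WT SAT. Ifitm3 was the highest in each group, at 525 ± 32.4 CPM per kb in KO VAT, 628 ± 60.3 in WT VAT, 697 ± 31.0 in KO SAT and 778 ± 197 in WT SAT (SD, n = 4). In KO SAT it was followed by Ifi27l2a (674 ± 53.3 CPM per kb), which differed from Ifitm3 by less than its own SD, and then by Lgals3bp (196 ± 8.05). Oas3 was the lowest in KO VAT (0.131 CPM per kb), WT VAT (0.115) and KO SAT (0.491), and Ifi44 in WT SAT (0.154). The 5 most abundant members made up 56.0% of the summed CPM in KO VAT, 56.1% in WT VAT, 50.9% in KO SAT and 57.6% in WT SAT. Of the 5 in SAT, Ifitm3, Slfn5, Ifi27l2a and Ifi27 were not called between KO SAT and WT SAT.

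The genes that carry the interferon signal were then read beside the effectors. The type I receptor chains Ifnar1 and Ifnar2 and the kinases Jak1 and Tyk2 were not called between genotypes in either depot. Ifnar1 had 71.8, 77.5, 70.3 and 73.1 CPM in KO SAT, against 75.1, 73.3, 62.8 and 73.0 CPM in WT SAT (0.04 ± 0.07, adjusted p = 0.741). Ifnar2 stood at -0.09 ± 0.07, Tyk2 at 0.06 ± 0.09 and Jak1 at 0.27 ± 0.10, and none of these passed the test in SAT. Jak1 still had every KO SAT library (421 to 465 CPM) above every WT SAT library (300 to 398 CPM). Of 8 tested STAT and IRF genes, 3 were called higher in KO SAT and none lower, where 3.46% of all tested genes were called higher and 2.43% lower. Stat2 had 113, 119, 116 and 117 CPM in KO SAT, against 77.1, 87.7, 80.0 and 66.2 CPM in WT SAT (0.58 ± 0.08, adjusted p = 0.000205). Irf9 rose by 0.34 ± 0.08 (adjusted p = 0.0146). Irf7, which drives interferon alpha genes and is itself induced by interferon, had 123, 135, 110.0 and 131 CPM in KO SAT, against 77.1, 72.9, 92.9 and 43.3 CPM in WT SAT (0.80 ± 0.20, adjusted p = 0.0261). The 3 genes did not overlap between KO SAT and WT SAT.

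In VAT, Stat2, Irf9 and Irf7 were not called (log2 fold changes of 0.19 for Stat2, -0.02 for Irf9 and -0.12 for Irf7). The only called factor there was Irf8, best known from myeloid cells and also in the list of plasmacytoid dendritic markers. It stood at 8.14, 12.1, 9.13 and 13.6 CPM in KO VAT, against 4.38, 5.67, 5.96 and 4.40 CPM in WT VAT (1.08 ± 0.17, adjusted p = 0.00128). Of 12 tested adaptors and kinases of nucleic acid sensing, 1 rose in SAT, where 3.46% of all genes did, the endosomal double-stranded RNA receptor Tlr3 (0.55 ± 0.07, adjusted p = 0.000264), and its KO effect differed between depots (-0.54 ± 0.11, adjusted p = 0.0426). Of 14 tested negative regulators, 1 was called higher in each depot, where 2.84% of all genes in VAT and 3.46% in SAT were. It was Nlrc5, in VAT (0.63 ± 0.12, adjusted p = 0.00582) and in SAT (0.47 ± 0.12, adjusted p = 0.0232). Nlrc5 is also in the list of antigen presentation genes given below. Socs3, a feedback inhibitor of cytokine signalling, was called lower in VAT (-0.31 ± 0.08, adjusted p = 0.0488), where 1.26% of all genes were. The interferon gamma receptor gene Ifngr1 was lower in KO of both depots (-0.40 ± 0.10 in VAT, adjusted p = 0.0273, and -0.34 ± 0.10 in SAT, adjusted p = 0.0487).

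**Figure D5:**
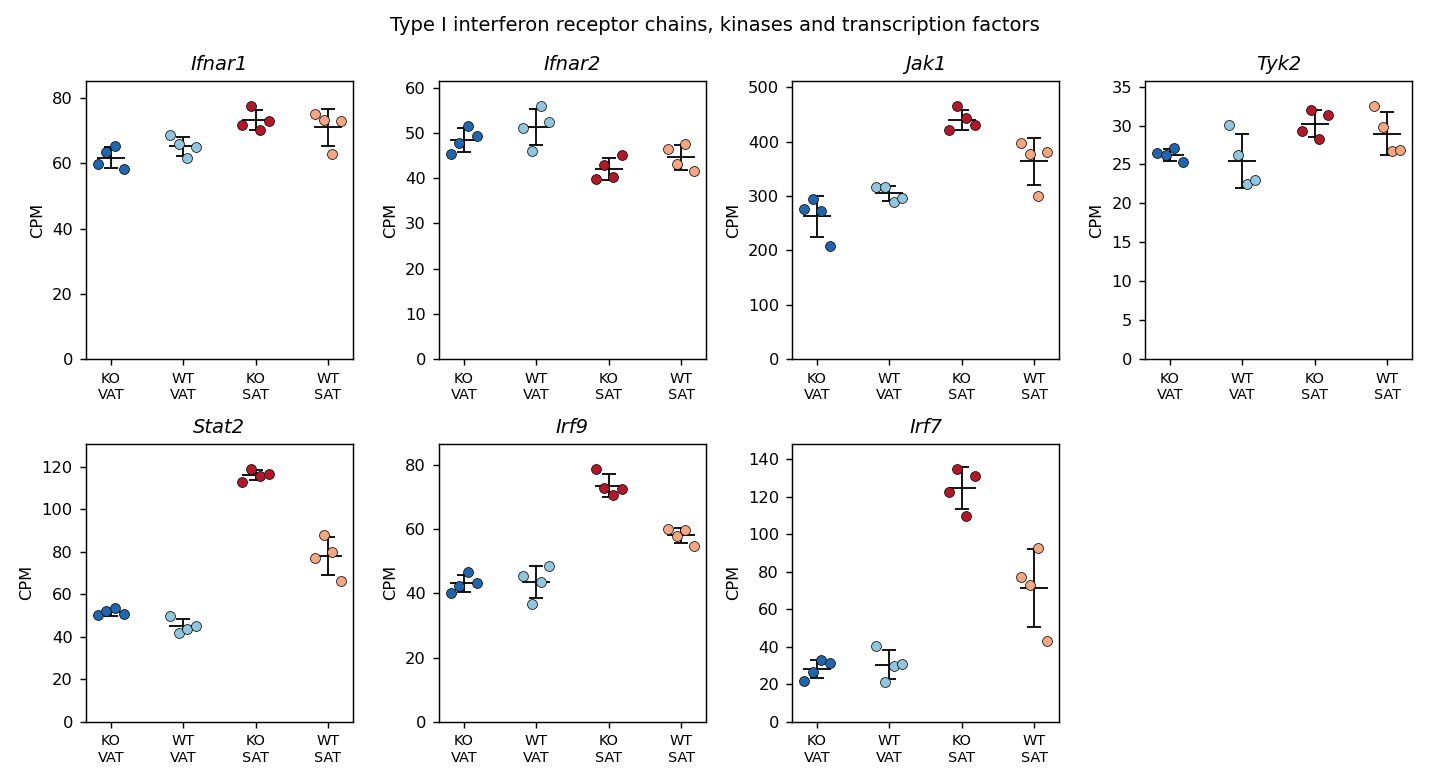
CPM in each library (points; black bar and whiskers give the mean and SD, n = 4) of the receptor genes Ifnar1 and Ifnar2, the kinase genes Jak1 and Tyk2, and the factors Stat2, Irf9 and Irf7, for KO VAT, WT VAT, KO SAT and WT SAT. Stat2, Irf9, Irf7 and Jak1 have all KO SAT points above all WT SAT points. The 4 receptor and kinase genes, Jak1 among them, were not called in either depot.

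Interferon transcripts themselves were at the edge of detection. Of 9 interferon genes listed, 6 had 0 counts in all 16 libraries (Ifna1, Ifna2, Ifna4, Ifnk, Ifne and Ifnl2), which allows a level of up to 0.0866 CPM in the shallowest library. Ifnb1, the interferon beta gene, had at most 10 counts in a library, and only in SAT. Ifng, the interferon gamma gene, averaged 0.661 CPM over all libraries and did not pass the test between genotypes in VAT (-0.01 ± 0.67) or SAT (-0.08 ± 0.61). A difference between genotypes in interferon RNA was not detectable at this depth.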

How the data were processed

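The authors deposited a table of whole-number read counts per gene symbol and library, from which every value here starts. A second table of normalised values was not used. Tools named by the submitters' processing notes are STAR, FastQC, featureCounts and DESeq, with build mm10. Tool versions, gene annotation, strandedness and the treatment of multiply mapping reads: not given in the sources used here. RNeasy Micro columns gave the RNA, NEBNext Ultra RNA the libraries, and sequencing gave single reads of 75 bases, per the labels' protocols. The cells were sorted (MACS in the names of the columns), by markers that the labels do not state.

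In R 4.3.3, edgeR 4.0.16 kept genes by filterByExpr, scaled libraries by TMM and fitted 1 coefficient per group to all 16 libraries (quasi-likelihood, 12 residual degrees of freedom, biological coefficient of variation 0.156). Adjusted p is Benjamini-Hochberg over 16842 genes, called under 0.05, and SE is the size of the log2 fold change over the root of F. CPM are TMM-scaled, and ± beside a level is the SD (n = 4). Alternatives were DESeq2 1.42.0, limma-voom (limma 3.58.1), DESeq2 size factors in edgeR, no filter, a stricter filter (1 CPM in 4 libraries), only the groups compared, a replicate block, and each library left out. The code was tested on simulated data. Gene positions are from GENCODE vM21 and promoters from RefSeq. Limits for 0 counts use 3 counts and cover counting error only. Figures used matplotlib 3.10.9.

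Members and lists were chosen with earlier results of these data known. Libraries' values are printed for the 8 called members with the smallest p that did not overlap and the 4 largest changes in KO against WT, the 5 smallest p in each direction between depots, every interaction call, and Isg15, Ifit1 and Ifih1. Up to 4 genes of other lists are named by smallest p in each KO against WT comparison. Ifnar1, Ifnar2, Jak1, Tyk2, Ifitm3, Slfn5, Bst2 and other genes named besides were chosen after their values were seen. A gene withheld from this text is not reported here.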

Additional observations from a re-analysis of the deposited data

Results flagged for a closer look

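Within groups of 4 libraries, 10 of 172 member-by-group sets had a library far from the other 3 (gap over range above Dixon's 95% critical value for 4 samples), and chance flags about 1 in 20 such sets. WT VAT replicate 2 was the low library in 4 of them: Oas2 at 4.77 CPM (others 6.94 to 7.23), Oasl2 at 48.5 CPM (others 69.0 to 72.3), Xaf1 at 13.8 CPM (others 18.7 to 19.0) and Sp100 at 65.3 CPM (others 70.3 to 71.0). That library was the lowest of WT VAT in 29 of the 43 members. KO SAT replicate 3 was low in Dhx58, at 15.2 CPM (others 20.1 to 20.7), and in Oas1a, at 13.8 CPM (others 18.2 to 18.5). KO VAT replicate 1 was low in Usp18, at 5.28 CPM (others 7.45 to 7.72), and KO VAT replicate 3 high in Trim30a, at 22.1 CPM (others 15.6 to 16.5). WT VAT replicate 1 was high in Dtx3l, at 25.2 CPM (others 22.4 to 22.7), and WT SAT replicate 4 was low in Usp18, at 25.5 CPM (others 39.8 to 42.3). WT SAT replicate 4 was the lowest of WT SAT in 34 of the 43 members.

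The KO effect differed between depots, by the interaction test of edgeR, in 7 members. The KO effect in VAT minus that in SAT was -0.82 for Ifih1, -0.91 for Ifit2, -0.91 for Samd9l, -0.81 for Herc6, -1.04 for Trim30a, -0.68 for Parp14 and -0.55 for Sp100.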

How the results depend on the processing

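The count of members called higher in KO SAT was 26 and ranged from 18 to 32 over the alternatives, and none called a member lower there. The 40 members called lower in KO VAT against KO SAT were called in every alternative, and 26 of the 27 depot calls in WT were (Trim21 was lost with only the groups compared and without WT SAT replicate 2). The VAT count of members called lower in KO was 0, but 2 with DESeq2, 1 with limma-voom, 2 with only the groups compared, and 0 to 2 with a library left out. Interaction calls lower numbered 7, but 17 with DESeq2, 1 with the replicate block, and 1 to 12 with a library left out. The share of all genes called was not counted with a library left out, the replicate block or only the groups compared. Members higher in WT VAT than WT SAT numbered 1 to 2 with a library left out, Nmi joining Ifi44 without WT SAT replicate 3. Uncalled changes near 0 in VAT turned sign: with a library left out, Ifit1 ran from -0.20 to 0.089 (above 0 without KO VAT replicate 1 or WT VAT replicate 1 or 4), and Isg15 from -0.085 to 0.21 (below 0 without KO VAT replicate 4 or WT VAT replicate 2). The cause of these changes was not tested. Replicate numbers are shared between groups without a stated link, and same-numbered libraries did not deviate together in every pair: over 4 pairs of groups the 16 correlations ran from -0.18 to 0.23, 4 were over 0.1 (3 of them between WT VAT and WT SAT), and in 7 of the 16 the best match was the same number. The replicate block left 24 calls in SAT, 40 lower in KO VAT against KO SAT, and 1 in the interaction. SE in SAT reached 0.41 for Mx1, 0.38 for Oas3, 0.31 for Epsti1 and for Rsad2, and 0.29 for Ifi44. Over all 16 libraries of SAT and VAT, the lowest count was 15 for Mx1 and Oas3, 23 for Epsti1, 22 for Ifi44 and 312 for Rsad2.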

Other observations

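Of 14 tested genes of the guanylate-binding (GBP) and immunity-related (IRG) GTPases, which attack vacuoles of intracellular pathogens and respond to interferon gamma as well, 10 were called higher in KO SAT and none lower, by edgeR, where 3.46% of all tested genes were called higher and 2.43% lower. Their median log2 fold change was 0.65, beside -0.01 over all genes. Gbp3 had 61.3 ± 4.59 CPM in KO SAT, against 34.5 ± 4.58 CPM in WT SAT (SD, n = 4), a log2 fold change of 0.83 ± 0.12 (edgeR adjusted p = 0.000537). Gbp9 rose by 1.18 ± 0.18 and Irgm2 by 0.54 ± 0.08. Irgm2 was also called in the interaction (-0.60 ± 0.12, edgeR adjusted p = 0.0411). In VAT 1 gene of these families was called, where 2.84% of all genes were called higher: Iigp1, at 43.6 ± 3.94 CPM in KO VAT, against 32.5 ± 5.25 CPM in WT VAT (0.42 ± 0.10, edgeR adjusted p = 0.0293). Members of both families are close copies, so their counts may be split.

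Of 18 tested genes of antigen presentation by MHC class I, 4 were called higher in KO SAT (3.46% of all genes were), among them B2m, the shared light chain (0.36 ± 0.09, edgeR adjusted p = 0.0287). Nlrc5, already counted above with the negative regulators, is another of them. H2-Q6 and H2-Q7, close copies of each other, were called higher in KO of both depots, at 0.61 and 0.58 in VAT and at 0.75 and 0.56 in SAT. Between depots, 16 of the 18 were called lower in VAT in KO, where 20.0% of all genes were, and 16 in WT, where 17.6% were.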
